A study of Mus musculus with 4 samples.

Results

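The genes described here are 47 genes of striated muscle, measured in liver RNA of 4 ABCA1-transgenic mice. They code for parts of the sarcomere, for calcium handling proteins of the sarcoplasmic reticulum and for muscle isoforms of energy enzymes. A gene was counted as measured when a probe set of the array carried its symbol and no other, and 45 of the 47 were, by 61 of the 22626 probe sets. Ampd1 and Mybpc2 were not analysed here. Where a gene had several probe sets, the one with the highest mean log2 signal gave its value, and 12393 genes in all had such a value. The list was drawn up with earlier results of these same arrays known, in which muscle transcripts spread widely between the livers. The members were in that sense chosen by their spread between the 4 mice, so their levels and spread are described below and no test of them is offered as support.

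All 4 arrays belong to 1 group: liver of male C57BL/6 mice carrying an ABCA1 transgene, killed at 5 to 6 months of age on the NIH36 diet. ABCA1 is the transporter that loads cellular cholesterol and phospholipid onto apolipoprotein A-I. The series title gives an LDL receptor -/- background and the sample descriptions give LDL receptor +/-, so the receptor genotype shared by the mice is not settled. The promoter and the species of the transgene are not given in the sources used here. The design names wild-type controls, whose arrays were not analysed here, so every comparison below is among the transgenic mice, called mouse 1 to mouse 4 after the replicate numbers. The labels call them biological replicates and say no more about the animals. Each mouse had 1 array, so no difference between 2 mice has a replicate check.

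The contractile unit of striated muscle, the sarcomere, slides myosin filaments along actin filaments when calcium binds the troponin complex. Fast and slow fibres build it from different genes: fast fibres use their own myosin heavy chains, light chains, troponins and calcium pump, and slow fibres share many of theirs with the ventricles of the heart. Hepatocytes make neither set, and healthy liver tissue holds smooth muscle in its vessels but no striated fibres. The members were grouped as fast (13 of 14 measured), slow (6 of 6), cardiac (4 of 4) and common to striated muscle (20 of 21). The embryonic and perinatal heavy chains Myh3 and Myh8 were kept apart as a developmental class of 2.

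The proximal promoters of 4 members are shown because these genes moved together between the livers, as described below. Of the 45 measured members 37 were found by symbol in the RefSeq promoter table (build GRCm38.p6), with 44 windows. Each window is the 250 bases before an annotated start, 5′ to 3′ on the coding strand. Capitals mark the E-box CANNTG, the motif of the MyoD family, and the SRF motif (the CArG box). The windows lie at chr2:164779735-164779984 (minus strand) for the fast troponin C gene Tnnc2, chr8:123894776-123895025 (minus strand) for the skeletal actin gene Acta1, chr13:91876886-91877135 (minus strand) for the sarcomeric mitochondrial creatine kinase gene Ckmt2, and chr11:67199852-67200101 (plus strand) for the fast heavy chain gene Myh1.
Tnnc2: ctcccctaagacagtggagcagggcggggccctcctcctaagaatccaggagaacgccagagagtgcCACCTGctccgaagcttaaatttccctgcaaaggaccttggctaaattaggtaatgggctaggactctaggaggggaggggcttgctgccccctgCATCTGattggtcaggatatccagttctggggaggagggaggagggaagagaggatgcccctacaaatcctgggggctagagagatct
Acta1: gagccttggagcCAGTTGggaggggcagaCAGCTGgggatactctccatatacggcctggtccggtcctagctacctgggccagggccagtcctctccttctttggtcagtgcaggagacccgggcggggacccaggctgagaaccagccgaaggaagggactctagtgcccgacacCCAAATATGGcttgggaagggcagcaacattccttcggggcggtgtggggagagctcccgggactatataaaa
Ckmt2: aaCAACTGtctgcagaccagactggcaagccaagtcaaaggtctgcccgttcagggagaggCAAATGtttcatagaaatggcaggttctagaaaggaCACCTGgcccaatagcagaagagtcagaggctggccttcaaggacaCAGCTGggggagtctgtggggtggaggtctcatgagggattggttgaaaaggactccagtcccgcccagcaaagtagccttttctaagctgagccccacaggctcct
Myh1: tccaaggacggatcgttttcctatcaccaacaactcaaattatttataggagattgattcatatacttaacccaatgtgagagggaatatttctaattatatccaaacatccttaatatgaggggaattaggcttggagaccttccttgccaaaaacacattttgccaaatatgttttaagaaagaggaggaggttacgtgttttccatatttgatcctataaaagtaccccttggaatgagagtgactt

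An E-box was present in 37 of the 44 member windows (84.1%), against 66.2% of the 32851 windows of all genes. The CArG box was in 7 member windows (15.9%), against 1.47% of all windows, and the MEF2 motif in 2 (4.55%), against 0.508%. These 3 motifs read the same on both strands, and in 0 windows did they overlap. In the 4 windows shown, Ckmt2 had 4 E-boxes, Tnnc2 had 2, and Acta1 had 2 with 1 CArG box. The Myh1 window had 0 matches to the 3 motifs as searched, although Myh1 was among the members that differed most between mice. Forms of the MEF2 motif with other end bases were not searched, so its absence from a window is not shown. Several windows belong to alternative starts of 1 gene, so these shares are descriptions of letters in a window.

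Muscle transcripts were lowest in mouse 1 for most members. Each gene's level in a mouse was set against its average in the remaining 3, and the median of this difference over the members was -1.04 log2 in mouse 1, where all 12393 genes gave -0.05. The member median was 0.61 in mouse 2, 0.46 in mouse 3 and 0.42 in mouse 4, where all genes gave 0.06, 0.09 and -0.06. In mouse 1, 40 of 45 members lay below the mean of the other mice, as did 7093 of the 12393 genes. The lowest level was in mouse 1 for 34 members, against 28.9% of all genes. At least 2-fold below the other mice in mouse 1 were 23 members, or 51.1%, where 5.78% of all genes were. Among genes whose mean level lay in the middle range of the members (6.93 to 8.42 log2), 12 of 23 members and 4.12% of all genes met that fold. The rule had this contrast in view, so nothing further is read from these shares. Because tissue pieces were measured in bulk, fewer muscle cells in a piece and less muscle RNA per cell cannot be told apart.

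**Figure D1:**
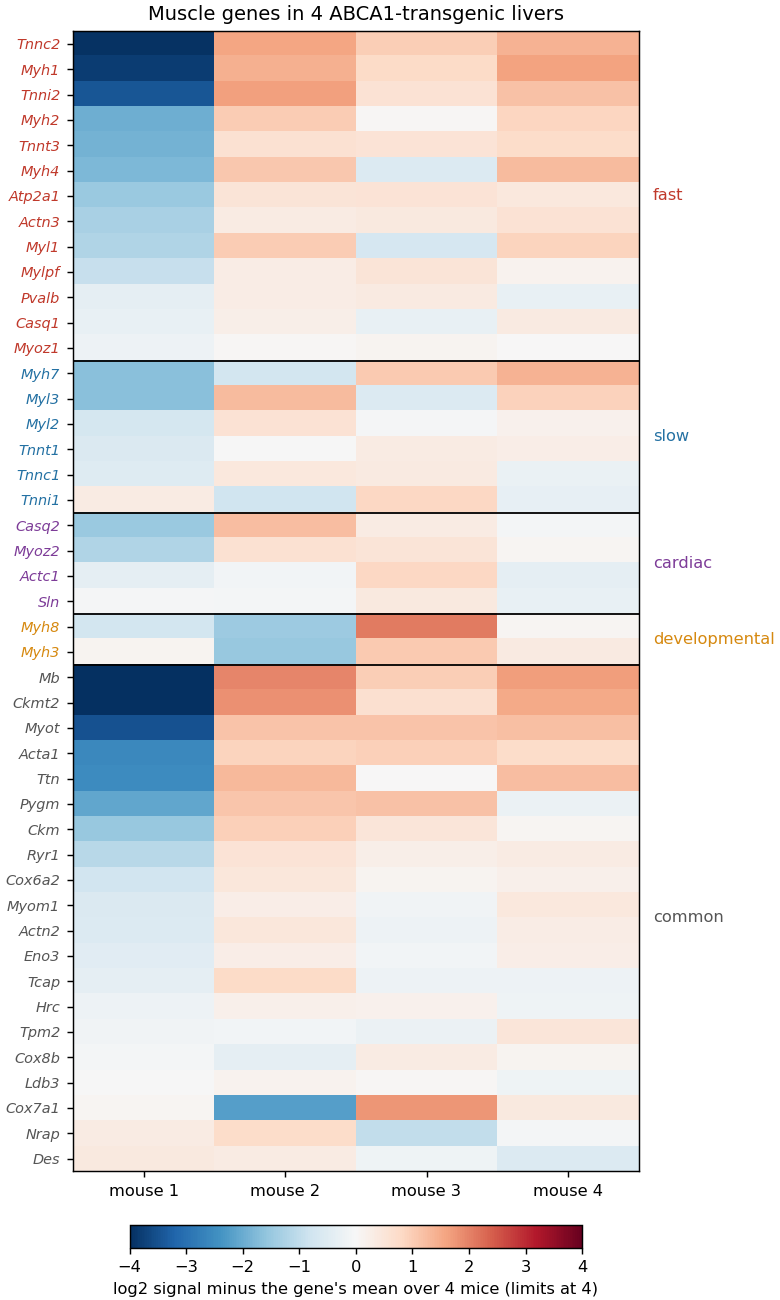
Each row is 1 of the 45 measured muscle genes, grouped by fibre class, and each column is 1 liver (mouse 1 to mouse 4); colour gives the log2 signal minus the gene's mean over the 4 mice, with blue for lower and red for higher and colours limited at 4. Mouse 1 is blue for 34 genes that have their lowest level there, most deeply for Mb, Ckmt2, Tnnc2, Myh1, Myot and Tnni2.

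Measured against each array's own distribution, 23 of the 45 members were under the array's lower quartile in mouse 1, which lay at 6.31 log2. In mice 2, 3 and 4 the number was 9, 7 and 9, with lower quartiles of 6.52, 6.51 and 6.23. Of all 12393 genes, 2388, 2361, 2347 and 2390 were under the lower quartile in mice 1 to 4. Signals over the array median were found for 7 members in mouse 1 and for 23, 16 and 23 in mice 2 to 4. Among all genes the numbers were 7115, 7203, 7199 and 7119. The quartiles and medians are over all probe sets, while each gene is read by its highest probe set. The summed signal of the members was 0.02% of the array's total in mouse 1 and 0.0612%, 0.0481% and 0.0578% in mice 2 to 4. The muscle transcripts were therefore a small part of the measured signal in every liver.

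The fast class had the lowest median of the 5 classes in mouse 1. That median was -1.97 log2 from the other mice. In mouse 1, 13 of 13 members lay lower, 12 had their lowest level, and 10 were at least 2-fold lower. Of all 12393 genes, 7093 lay lower there, 28.9% were lowest and 5.78% were at least 2-fold lower. Among the heavy chains, Myh1, the myosin of type IIX fibres, had log2 signals of 5.96, 11.19, 10.51 and 11.36 in mice 1 to 4. Mouse 1 was far below the rest, and the other mice averaged 33.3-fold higher. Myh2, the myosin of type IIA fibres, measured 6.48, 9.44, 8.48 and 9.28. Myh4, the myosin of the fastest IIB fibres, measured 5.59, 8.46, 6.86 and 8.66, so mouse 3 sat between mouse 1 and the pair of mice 2 and 4. The heavy chain genes are close relatives, and how far their probe sets bind each other's transcripts was not tested.

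**Figure D2:**
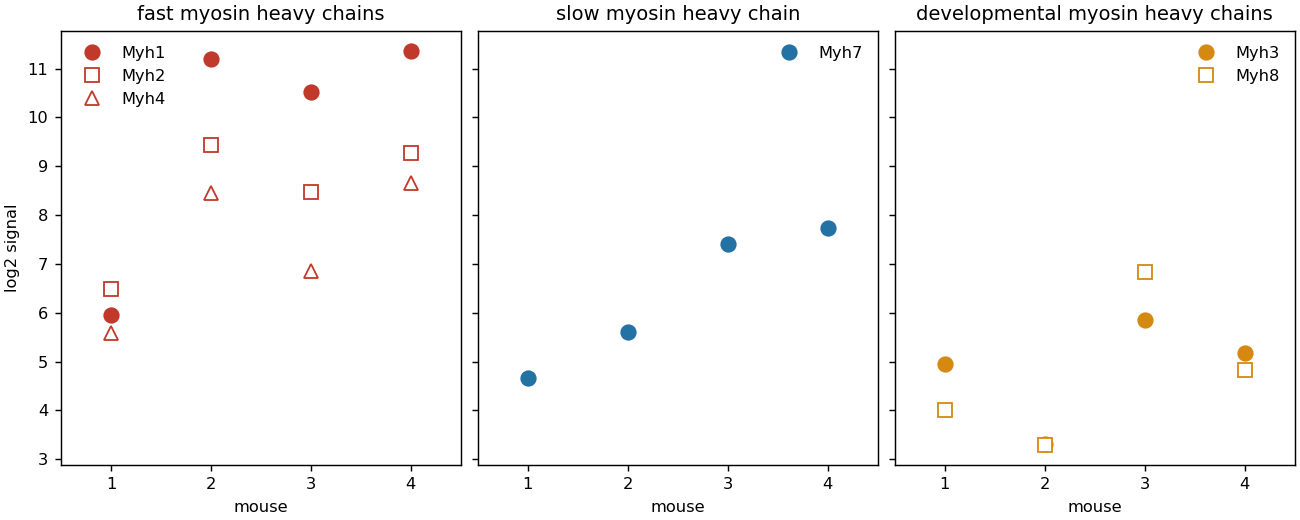
Log2 signal of the 6 myosin heavy chain genes in each liver, with 1 point per mouse and panels for the fast, slow and developmental genes; heights of different genes are not comparable because their probe sets differ. The fast genes are lowest in mouse 1, Myh7 is lower in mice 1 and 2 (4.67 and 5.61) than in mice 3 and 4 (7.40 and 7.73), and Myh3 and Myh8 are highest in mouse 3 and lowest in mouse 2.

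The fast troponin subunits followed the same division. Tnnc2, the calcium sensor, measured 4.16, 9.70, 9.10 and 9.52 in mice 1 to 4, and its difference in mouse 1 was -5.28 log2. Tnni2, the inhibitory subunit, measured 4.38, 9.45, 8.39 and 8.97, and Tnnt3, the tropomyosin-binding subunit, 6.18, 8.70, 8.62 and 8.81. With signals under 64 raised to 64 the differences of mouse 1 were -3.44 for Tnnc2, -2.94 in place of -4.56 for Tnni2, and -2.53 as before for Tnnt3. In each of these 3 genes mouse 1 was at least 4-fold below each other mouse, and mice 2 to 4 lay within 1.06 log2 of each other. The fast light chains differed less. Myl1 measured 6.03, 8.25, 6.58 and 8.12, with mouse 3 close to mouse 1, and Mylpf measured 6.45, 7.66, 7.89 and 7.50.

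Among calcium handling and Z-disc genes of fast fibres, Atp2a1, the calcium pump SERCA1, measured 8.01, 10, 10.04 and 9.92 in mice 1 to 4. Mice 2 to 4 were nearly level there and mouse 1 was -1.97 log2 from their mean. Actn3, the alpha-actinin of fast fibres, measured 3.42, 5.04, 5.12 and 5.28, all low signals. The remaining fast genes differed less on the probe sets used. Casq1, which stores calcium in the reticulum, measured 8.22, 8.77, 8.22 and 8.89, with mouse 3 the lowest by a margin under the second decimal. Pvalb, the calcium buffer parvalbumin, measured 7.20, 7.86, 7.91 and 7.26, and Myoz1, a Z-disc protein that binds calcineurin, 8.77, 9.01, 9.08 and 8.98. Myoz1 had the smallest SD of all members, 0.13 log2 (n = 4), on a probe set well inside the signal range. A further probe set of Myoz1, with low signals, was lowest in mouse 1, at 2.98, 3.94, 5.26 and 3.64.

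Slow genes differed less, and not in 1 common order. Their median in mouse 1 was -0.86 log2, 5 of 6 were lowest there and 2 were at least 2-fold lower. Of all 12393 genes, 28.9% were lowest and 5.78% at least 2-fold lower there. Under the array's lower quartile were 3 of the 6 in mouse 1 and 2, 1 and 1 in mice 2 to 4. Over the array median were 0 in mouse 1 and 2, 0 and 2 in mice 2 to 4. Myh7, the heavy chain of slow fibres and of the adult human ventricle, measured 4.67, 5.61, 7.40 and 7.73 in mice 1 to 4. Mouse 2, which had high fast heavy chain signals, differed in Myh7 by -1.78 log2 from mouse 3 and by -2.12 from mouse 4. The opposite direction was found on both probe sets that read Myh7 together with the cardiac heavy chain Myh6, which were highest in mouse 2, at 2.10, 6.98, 6.36 and 6.16, and 3.28, 6.40, 5.27 and 4.25 in mice 1 to 4. Myl3, an essential light chain of slow fibres and ventricle, measured 5.50, 8.44, 6.62 and 8.10, which on the probe set used is the order of Myl1. Myl2, the regulatory light chain of the same fibres, measured 7.42, 8.71, 8.09 and 8.31. Mouse 1 was the lowest for all 3 of these genes on the probe sets used. Both further probe sets of Myl3 were highest in mouse 3, at 5.22, 7.55, 8.14 and 6.97, and 6.38, 4.43, 7.72 and 7.11. The latter was lowest in mouse 2.

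The slow troponins varied less than the fast ones, with SDs of 0.46 for Tnnc1, 0.42 for Tnnt1 and 0.71 for Tnni1 (n = 4). Tnnc1, the troponin C of slow fibres and heart, measured 6.65, 7.58, 7.54 and 6.92, and Tnnt1, the slow troponin T, 6.51, 7.08, 7.42 and 7.36. Tnni1, the slow inhibitory subunit, was the 1 slow gene not lowest in mouse 1. Its signals of 5.50, 4.36, 5.99 and 4.84 were low on every array. Beside the fast subunits of the same complex, the differences of mouse 1 were -5.28 for Tnnc2 and -0.70 for Tnnc1, -4.56 for Tnni2 and 0.43 for Tnni1, and -2.53 for Tnnt3 and -0.78 for Tnnt1. A probe set near background on every array understates a difference, and a low signal in mouse 1 alone can overstate it. With signals under 64 raised to 64, Tnnc2 had -3.44 and Tnni2 -2.94. For these reasons the sizes were not tested against each other.

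**Figure D3:**
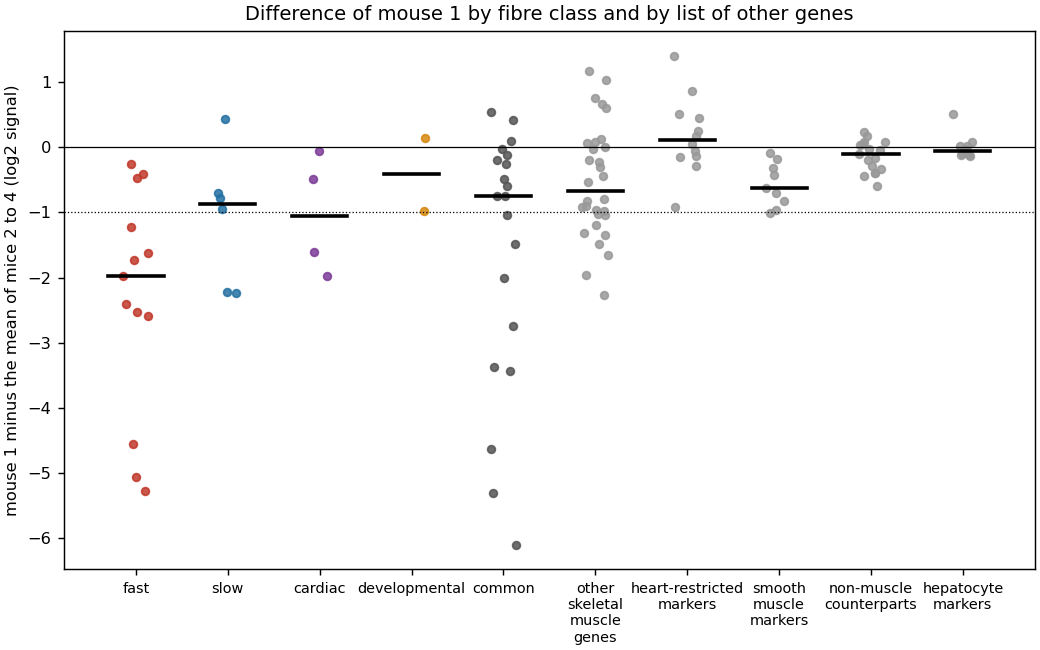
Difference in log2 signal of mouse 1 from the mean of mice 2 to 4, with 1 point per gene, a black bar at the median of each fibre class or list and a dotted line at a 2-fold decrease. Fast genes have a median of -1.97 and slow genes of -0.86, while heart-restricted markers (0.11), non-muscle counterparts (-0.10) and hepatocyte markers (-0.06) lie near 0. In mouse 1, 7 of the 12 heart-restricted markers are under the array's lower quartile.

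The cardiac class was low on the arrays and mixed between the mice. Actc1, the cardiac actin, measured 7.14, 7.40, 8.32 and 7.15 in mice 1 to 4, with mouse 3 apart from the rest. Myoz2, a Z-disc protein of heart and slow fibres, measured 5.77, 7.58, 7.51 and 7.06, and Casq2, the cardiac calsequestrin, 2.81, 5.51, 4.63 and 4.21. Sln, sarcolipin, which inhibits the calcium pump in atria and some skeletal muscles, measured 5.14, 5.11, 5.58 and 4.88 and barely moved. The class median in mouse 1 was -1.05 log2, and it was -0.24 when signals under 64 were raised to 64 and -0.49 without probe sets marked as able to cross-hybridize. Separate markers of the heart, of which 12 of 13 were measured, had a median of 0.11 in mouse 1 with 7 higher and 5 lower. Of all 12393 genes, 7093 lay lower there. These markers were often low, with 7 of the 12 under the array's lower quartile in mouse 1 and 6, 6 and 7 in mice 2 to 4. Their widest members, Myh6 and Ryr2, measured 6.06, 5.40, 5.67 and 2.87, and 5.10, 6.35, 3.12 and 4.31, while Gja5 stayed at 2.54 ± 0.21 (SD, n = 4).

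The developmental heavy chains did not follow the fast genes. Myh3, the embryonic form, measured 4.94, 3.32, 5.86 and 5.17 in mice 1 to 4. Myh8, the perinatal form, measured 4.01, 3.29, 6.83 and 4.83, and was at least 4-fold above each other mouse in mouse 3, as were 0.29% of all genes. Both were highest in mouse 3 and lowest in mouse 2. Their signals were mostly under the array's lower quartile. With signals under 64 raised to 64 the class median was -0.14 in place of -1.97 in mouse 2 and 0.42 in place of 2.08 in mouse 3.

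Among genes shared by striated fibres, Mb and Ckmt2 had the largest SDs, followed by the sarcomere genes Myot, Ttn and Acta1. Mb, myoglobin, measured 3.90, 10.42, 9.46 and 10.15 log2 in mice 1 to 4, the largest SD of the 45 members at 3.08 (n = 4). The difference of mouse 1 was -6.11 log2, but its signal there lay far under that array's lower quartile, so no exact fold is given. It was -4.01 with signals under 64 raised to 64, and -3.45 as the mean over the 2 probe sets of Mb. Ckmt2, which makes phosphocreatine at the mitochondrion, measured 2.94, 8.76, 7.56 and 8.46, again with mouse 1 far under its array's lower quartile. When signals under 64 were raised to 64, its difference was -2.26 in place of -5.31 log2. Ckm, the cytosolic muscle creatine kinase, measured 7.45, 9.92, 9.45 and 9.03. Pygm, the muscle glycogen phosphorylase, measured 4.30, 7.48, 7.55 and 6.13, so mouse 4 lay between mouse 1 and the pair of mice 2 and 3.

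Sarcomere genes of the common class divided into large and small differences. Acta1, the skeletal actin, measured 7.22, 10.68, 10.76 and 10.52, and the other mice averaged 10.8-fold higher than mouse 1. Ttn, the giant spring protein titin, measured 5.37, 9.19, 7.90 and 9.12, and Myot, the Z-disc protein myotilin, 3.82, 8.43, 8.43 and 8.51. Mice 2 to 4 were almost equal for Acta1 and Myot. The difference of mouse 1 for Myot was -4.64 log2, and -2.46 with signals under 64 raised to 64. Ryr1, the calcium release channel, measured 5.37, 7.03, 6.73 and 6.81. By contrast Nrap, an actin-anchoring protein, measured 7.26, 7.69, 5.95 and 6.88, with mouse 3 the lowest.

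Cox7a1, the muscle isoform of a cytochrome c oxidase subunit, measured 4.85, 2.56, 6.53 and 5.16, and mouse 2 was at least 4-fold below each other mouse, as were 0.323% of all genes. Its signals in mice 1, 2 and 4 were under 64 and under their arrays' lower quartiles, so the size of this distance is uncertain. The order is that of Myh8 and not that of Mb, but in Cox7a1 and Myh8 it rests on mostly low signals. Hrc, a calcium-binding protein of the reticulum, measured 8.57, 8.96, 8.95 and 8.59, and Ldb3, a Z-disc PDZ protein, 7.49, 7.65, 7.55 and 7.32. These had the smallest SDs of the class, 0.22 and 0.14 log2 (n = 4). The other 8 common genes had SDs from 0.29 (Cox8b) to 0.54 (Cox6a2), and their differences in mouse 1 ran from -1.04 (Cox6a2) to 0.54 (Des). Des, the intermediate filament desmin, is also made by hepatic stellate cells and smooth muscle, and was the 1 member with its highest level in mouse 1, at 8.28 against 8.21, 7.70 and 7.32 in mice 2 to 4. A lower probe set of Des had its lowest level in mouse 1, with a difference of -0.84.

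In 10 members mouse 1 was at least 4-fold below each other mouse: Myh1, Myh2, Tnnc2, Tnni2, Tnnt3, Acta1, Ttn, Mb, Ckmt2 and Myot. All genes together held 80 such cases (0.646%), so 22.2% of the members were among them and the members made up 12.5% of them. When the signals in mice 2 to 4 were also required to reach 8 log2, 13 genes were left and 8 of them were members. That filter reads only the mice in which these members were high, so the 8 of 13 are a description and no support. The other 5, named after their values were seen, were Dmbt1, a mucosal scavenger receptor protein, Bace2, Rce1, Ube2s and Myhas, an antisense RNA of the heavy chain cluster. Myhas measured 6.06, 9.14, 8.65 and 8.56, and its probe set was designed from the same GenBank record as a probe set of Myh1.

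Among mice 2, 3 and 4 the class medians took different orders, and single members differed in either direction. The widest difference was -3.97 log2 for Cox7a1 in mouse 2 minus mouse 3, on a signal under 64 in mouse 2. Mouse 2 minus mouse 3 had a median of 0.56 log2 over the fast class (8 of 13 higher in mouse 2), 0.36 over the common class (15 of 20), -0.15 over the slow class (3 of 6), -0.20 over the cardiac class (2 of 4) and -3.04 over the developmental pair. Mouse 4 minus mouse 3 had a median of 0.43 over the fast class (9 of 13 higher in mouse 4) and 0.08 over the slow class (3 of 6), and mouse 2 minus mouse 4 of 0.07 and 0.04. The widest fast differences were in Myh4 and Myl1, higher in mouse 4 than in mouse 3 by 1.80 and 1.55. Over all genes the medians of these 3 pairs were -0.01, -0.11 and 0.10. A level over 2-fold above the other mice was met by 16 members in mouse 2, 12 in mouse 3 and 12 in mouse 4, against 6.37%, 6.13% and 2.78% of all genes. Those counts rested on mouse 1, and without it they were 3, 5 and 2. The shares of all genes are with mouse 1 included, so they are no baseline for the counts without it. In mouse 3 the fast median was 0.54 with mouse 1 among the others and -0.51 without it, and the median over all members 0.46 and -0.07.

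**Figure D4:**
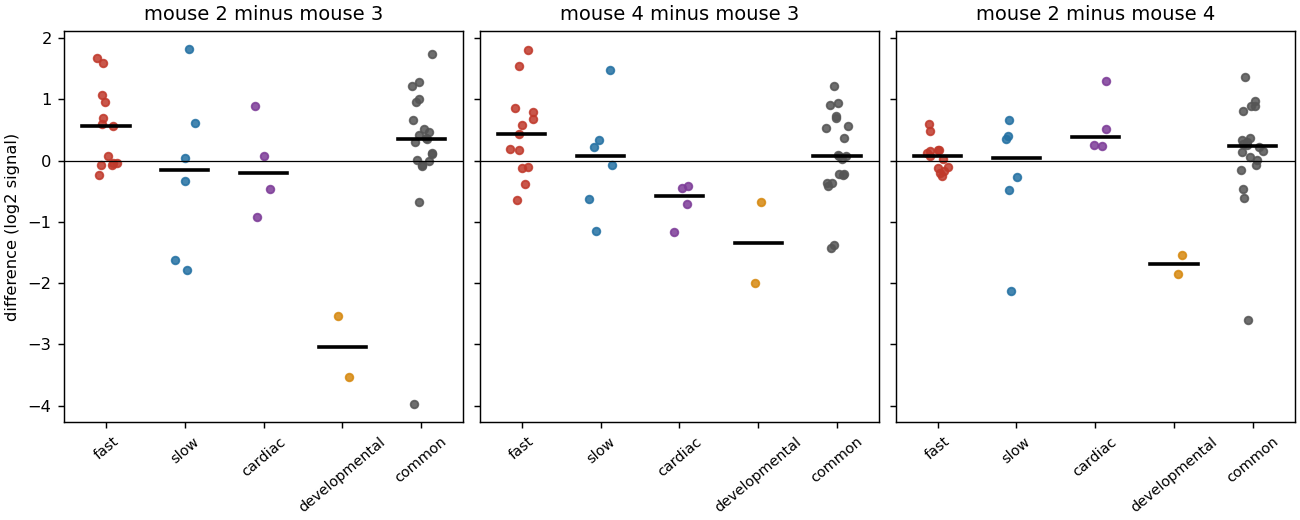
Differences in log2 signal between mice 2, 3 and 4 for each muscle gene, with 1 point per gene and a black bar at each class median; panels show mouse 2 minus mouse 3, mouse 4 minus mouse 3 and mouse 2 minus mouse 4. Fast genes have medians of 0.56, 0.43 and 0.07, and the developmental pair lies below 0 in all panels, at -3.04, -1.34 and -1.69.

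The most frequent order, mouse 1 < 3 < 4 < 2 from low to high, was found in 14 of 45 members and in 3.91% of all genes. The highest level was in mouse 2 for 21 members, in mouse 3 for 14 and in mouse 4 for 9, against 29.8%, 33.5% and 19.3% of all genes. Among fast genes the top mouse was divided, with 4 highest in mouse 2, 4 in mouse 3 and 5 in mouse 4. In the common class 12 of 20 were highest in mouse 2.

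Further probe sets of the same genes gave a partial repeat on the same RNA and array. The 10 members with several probe sets had 16 further ones, of which 14 were lower in mouse 1 than the mean of the other mice and 12 had their lowest level there. In 7 the lowest mouse was that of the probe set used for the gene. Of all 12393 genes, with 1 probe set each, 7093 lay lower in mouse 1 and 28.9% were lowest there. Some members repeated in size and others did not. A further probe set of Myh1 had a difference of -5.36 log2 in mouse 1, beside -5.06, those of Tnni2 had -4.32 and -0.63, beside -4.56, and one of Ttn had -4.68, beside -3.37. The second probe set of Mb had -0.79, beside -6.11, and another of Myh1, with a mean of 5.41, had 0.77, so that the mean over the probe sets of Myh1 was -3.22. Disagreement was not confined to low probe sets: of the 5 further ones with a mean of at least 7 log2, 2 had the same lowest mouse. Myl3 was uneven, with -2.22, -2.33 and -0.04 on its 3 probe sets. For Ldb3, which looked flat, a low probe set gave -3.07.

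Across all 22626 probe sets, limma's test of excess spread between the mice called 0 at an adjusted p under 0.05 (0%), and 0 of the 61 member probe sets. At an unadjusted p under 0.05 it held 22 member probe sets and 839 in all (3.71%), and without mouse 1 it held 8 and 893. The members' contrast was already known, so this count is a description. The smallest adjusted p among member genes was 0.247, for Myh1 and Mb (limma, Benjamini-Hochberg over all probe sets). Relative to the spread that the test takes as usual at the same level, the median member had 1.79 times the SD, the median fast gene 3.70 times and the median slow gene 1.45 times, against 0.966 over all probe sets. When only the probe sets with a mean of at least 7 log2 were tested, 10 of 15126 passed. Among them were 5 of the 36 member probe sets tested, of Tnnc2, Myh1, Acta1 and Mb. Tnnc2, Myh1 and Mb were under 7 log2 in mouse 1 and reached that mean through mice 2 to 4, so these counts too are a description.

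Of all 12393 genes, 7093 lay lower in mouse 1, 28.9% were lowest and 5.78% were at least 2-fold lower there. Other skeletal muscle genes, 30 measured of 44 listed symbols, had a median of -0.66 log2 in mouse 1. Of these, 21 were lower and 15 lowest there, and 9 were at least 2-fold lower. Their widest members, the thin filament cap Tmod4 and the Z-disc protein Pdlim3, measured 4.45, 6.01, 3.42 and 6.80, and 4.82, 4.01, 6.57 and 6.93, while Csrp3 held at 10.70 ± 0.13 (SD, n = 4). Smooth muscle markers were lower in mouse 1 for 9 of 9, with a median of -0.63 and summed signals of 4348 in mouse 1 and 6705, 5964 and 5653 in mice 2 to 4. Their widest members, Cnn1 and Actg2, measured 5.39, 6.03, 7.46 and 5.19, and 6.27, 7.26, 7.95 and 6.46, with Synpo2 flat at 7.53 ± 0.11 (SD, n = 4). The non-muscle counterparts of the members stayed close, with a median of -0.10 over 17 genes. Tpm3 measured 11.53 ± 0.01 (SD, n = 4), and the widest were Ampd2 at 11.03, 11.21, 9.88 and 11.30 and Actg1 at 12.52, 12.91, 13.43 and 12.41.

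The tissue is labelled liver, and all 10 measured hepatocyte markers of 13 listed were over the array median in every mouse. Cyp2e1 measured 15.50 ± 0.06, Tat 14.22 ± 0.22 and Apoa2 14.88 ± 0.26 (SD, n = 4). Their summed signals were 442900 in mouse 1 and 482201, 431694 and 445072 in mice 2 to 4. Abca1 measured 12.82 ± 0.17 (SD, n = 4). Marker genes of neighbouring tissues also differed between the mice, and not all in the order of the muscle genes. Exocrine pancreas markers, 11 of 12 measured, summed to 2081, 7569, 2334 and 3297 in mice 1 to 4, with all 11 highest in mouse 2. Their widest members, Cpa1 and Cpb1, measured 2.29, 9.36, 3.35 and 6.24, and 6.63, 9.55, 3.89 and 8.20, while Cela1 stayed at 9.90 ± 0.31 (SD, n = 4). Bile duct markers, 6 of 9 measured, summed to 660, 1325, 1403 and 1229, and adipocyte markers, 7 of 9 measured, to 2495, 3733, 3421 and 3575. Krt19 and Cd24a were the widest of the duct markers, at -2.83 and -1.85 log2 in mouse 1 with Epcam at 4.72 ± 0.34 (SD, n = 4), and Retn and Adipoq of the adipocyte markers, at -1.18 and -1.16 with Aqp7 at 3.89 ± 0.32 (SD, n = 4). Red cell markers, 3 of 6 measured, had a median of 0.05, with Hba-a1 at 0.76, Slc4a1 at 0.05 and Alas2 at -0.27.

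Signs of RNA quality also differed in mouse 1. Its 3-prime minus 5-prime differences were the smallest of the 4 mice, narrowly so for Actb. The 3-prime minus 5-prime log2 signal of the Gapdh control probe sets was 1.67 in mouse 1 and 1.94, 2.03 and 2.00 in mice 2 to 4, that of Pcx was 4.09 and 4.79, 4.71 and 4.79, and that of Actb was 1.82 and 1.88, 2.12 and 2.02. The 18S ribosomal control averaged 9.95 in mouse 1 and 8.98, 8.75 and 8.79 in mice 2 to 4. The part of these tissues and of RNA quality in the muscle differences was not tested.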

How the data were processed

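Liver total RNA of 4 mice was measured on 1 biotin-labelled oligonucleotide array each, after amplification from 2 ug with the RiboAmp protocol, per the labels' protocols. The deposited values are 1 linear signal intensity per probe set and array, for which the submitters' processing notes name RMA. RMA as usually run gives log2 values, whereas these are linear, reach down to 0.1 and share a mean of 1000 on every array once 2% of the probe sets were trimmed from either end, so the step that made them is not settled. The number of arrays limits the precision.

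Log2 was taken of the deposited signals, and nothing was added to them. The 64 control probe sets were left out. Gene names came from the platform annotation, in which 20380 probe sets had 1 symbol, 691 several and 1555 none, and Entrez lookup changed 0 member symbols. Each mouse was compared with the mean of the other 3, with no test. A fold is 2 to the power of such a difference. Spread was tested with limma 3.58.1 in R 4.3.3: each variance against a robust prior that follows mean level, upper-tail F, Benjamini-Hochberg over all probe sets. It was run on simulated data drawn from its own fitted prior, which does not check that prior against these arrays. Replicates may differ for technical reasons, and p-values then measure only the spread between these arrays.

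The members, lists and fibre classes were chosen with earlier results of these data known. Named were all fast, slow, cardiac and developmental members, the 10 common members of largest and the 2 of smallest SD, and in each of the other 9 lists the 2 genes of largest and the 1 of smallest SD. Des, Tcap, Tpm2, Cox6a2, Cox8b, the genes outside the lists and Abca1 were named after their values were seen. Alternatives were the mean over a gene's probe sets, no probe sets ending in _s_at or _x_at, signals raised to 64, a mean of at least 7 log2, median shift, quantile normalization, a pseudocount of 16, other priors, another class assignment and leaving out each mouse.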

Additional observations from a re-analysis of the deposited data

Results flagged for a closer look

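In 10 of the 45 members (22.2%) 1 liver lay far from the other 3 by Dixon's ratio, the gap to the nearest value over the whole range against the critical value for 4 samples. Chance alone flags about 1 in 20 genes, and 5.91% of all genes met it here. The members were chosen with their spread between these mice known, so their share is a description and no support. In 8 members the stray liver was mouse 1, on the low side. The ratio was 0.984 for Myot, 0.94 for Atp2a1, 0.933 for Acta1, 0.929 for Tnnt3, 0.891 for Tnnc2, 0.868 for Actn3, 0.852 for Mb and 0.842 for Myh1. All 4 signals of Actn3 were under 64. The remaining members were high in 1 liver: Tcap, the titin cap protein, in mouse 2 with 0.851 (7.95, 9.09, 8.10 and 8.12 log2 in mice 1 to 4), and Tpm2, a tropomyosin that smooth muscle also makes, in mouse 4 with 0.831 (10.57, 10.61, 10.49 and 11.21).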

How the results depend on the processing

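Of 429 values recomputed under 14 alternatives, 416 stayed within the spread between mice or within 1.5 times the count, and 0 changed sign where the main value was past 2-fold. That spread is the one described here, so a wide contrast could move far and still count. Mb counted as within it at -3.45 beside -6.11 log2 in mouse 1. Values not past 2-fold did change sign. The fast median of mouse 3 turned negative without mouse 1. With the mean over probe sets, the slow median of mouse 2 went from 0.27 to -0.03. The count of members at least 2-fold higher in mouse 3 was 12, and 4 with signals under 64 raised to 64 and 6 with a mean of at least 7 log2, where 31 members were left. The spread test passed 5 member probe sets under that filter, which some of them met only through mice 2 to 4. Fewer probe sets were tested there, and 0 member probe sets passed under each other alternative. Leaving out 1 mouse at a time gave 0 each time. It gave member medians of -1.25 to -1.07 in mouse 1, 0.26 to 0.83 in mouse 2, -0.07 to 0.67 in mouse 3 and 0.06 to 0.56 in mouse 4, and fast medians of -2.15 to -1.97, 0.26 to 1.30, -0.51 to 0.84 and 0.15 to 1.41. The lower end in mice 2 to 4 was without mouse 1. Slow medians were -0.95 to -0.83, 0.02 to 0.48, 0.25 to 0.62 and 0.01 to 0.47. Counts at least 2-fold higher were 3 to 19 in mouse 2, 5 to 17 in mouse 3 and 2 to 17 in mouse 4, and 23 to 24 members were at least 2-fold lower in mouse 1. No paired analysis was possible because the labels give 1 group only. Most low levels lie near background, where log2 differences are noisy.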
